A study of Mus musculus with 20 samples.

Results

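The genes of the proteasome were followed in liver RNA from 20 mice, which formed 5 groups of 4. Members were all genes whose single symbol in the array annotation starts with Psma to Psmg followed by a number. These were 48 of the 15252 genes measured, read by 57 of 23493 probes, and 41 of the 48 had 1 probe each. All mice received a hydrodynamic tail vein injection, in which a fluid volume of 10% of body weight is pushed rapidly into the vein so that small RNAs reach hepatocytes, and livers were taken 48 h later. The vehicle group received Ringer's solution alone. The other groups received 40 µg of a small interfering RNA (siRNA) in Ringer's solution. PPARa siRNA and PPARa-M siRNA were directed at Ppara, the gene of the nuclear receptor PPARα, and the controls, SEAP-M control siRNA and GL3 control siRNA, at secreted alkaline phosphatase and luciferase. What the suffix M stands for, and the strain, age and sex of the mice, are not given in the sources used here. Every liver was hybridised on a 2-colour array against a pool from 4 vehicle mice, and whether the pool held RNA of the 4 vehicle mice profiled singly is not stated.

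The proteasome is the barrel-shaped protease that degrades ubiquitin-tagged proteins. Its 20S core stacks rings of alpha subunits, which gate the entry, on rings of beta subunits, which hold the cutting sites. The 19S cap recognises the tag (non-ATPase subunits) and unfolds the substrate (ATPase subunits). Interferons, above all interferon gamma, replace the catalytic beta subunits by Psmb8, Psmb9 and Psmb10 and raise the activator subunits Psme1 and Psme2, which yields the immunoproteasome, a form that cuts peptides for display on class I molecules. In hepatocytes the transcription factor Nfe2l1 raises the genes of core and cap when proteasome activity falls. By role, the members comprised 8 alpha ring, 8 beta ring, 5 immunoproteasome, 6 ATPase and 11 non-ATPase genes, 8 genes of activators, inhibitors or assembly factors, and 2 genes that share only the name pattern, Psmc3ip, whose product acts in meiotic recombination, and Psme3ip1, whose product binds an activator subunit. Psma8 and Psmb11 are known as testis and thymus forms. Because the values are ratios, they carry no level, so neither their presence in liver nor the identity of the tissue could be checked from them.

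The stretches before the start sites of the immunoproteasome genes are shown because these genes form the main comparison. Psmb9 lies at chr17:34182030-34187330 and Tap1, which encodes a transporter that carries cut peptides to class I molecules, begins 225 bases further on, so both genes are read away from the same short stretch. Psmb8 and Tap2 follow in the same cluster. RefSeq start sites on GRCm38.p6 were at hand for 40 of the 48 genes. The 250 bases before each start, with both listed starts of Psme2, are given from 5′ to 3′ on the gene's strand, and capitals mark a match on either strand to 2 copies of GAAA set 2 bases apart, a core of interferon response elements, or to TTCNNNGAA, the element bound by STAT factors.
Psmb8, chr17:34197945-34198194, + strand: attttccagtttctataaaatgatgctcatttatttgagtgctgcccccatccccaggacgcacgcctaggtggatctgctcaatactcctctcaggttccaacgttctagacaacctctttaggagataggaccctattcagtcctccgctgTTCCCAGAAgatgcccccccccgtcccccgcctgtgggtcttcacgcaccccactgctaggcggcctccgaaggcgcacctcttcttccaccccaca
Psmb9, chr17:34187331-34187580, - strand: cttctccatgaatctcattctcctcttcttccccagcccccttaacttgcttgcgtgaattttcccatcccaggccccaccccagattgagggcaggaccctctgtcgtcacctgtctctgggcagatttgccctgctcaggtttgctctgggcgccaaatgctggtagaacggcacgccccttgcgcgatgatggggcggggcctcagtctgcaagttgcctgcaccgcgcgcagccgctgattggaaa
Psmb10, chr8:105938393-105938642, - strand: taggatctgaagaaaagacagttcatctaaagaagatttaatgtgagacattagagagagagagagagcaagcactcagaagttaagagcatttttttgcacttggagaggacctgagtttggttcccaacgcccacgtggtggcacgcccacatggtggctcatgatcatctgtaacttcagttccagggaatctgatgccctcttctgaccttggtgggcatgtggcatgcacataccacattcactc
Psme1, chr14:55578244-55578493, + strand: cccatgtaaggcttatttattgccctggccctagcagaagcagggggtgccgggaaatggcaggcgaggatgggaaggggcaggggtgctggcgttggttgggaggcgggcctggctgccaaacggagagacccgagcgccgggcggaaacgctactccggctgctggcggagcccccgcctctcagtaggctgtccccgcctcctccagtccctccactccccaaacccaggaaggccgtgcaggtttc
Psme2, start 1, chr14:55591022-55591271, - strand: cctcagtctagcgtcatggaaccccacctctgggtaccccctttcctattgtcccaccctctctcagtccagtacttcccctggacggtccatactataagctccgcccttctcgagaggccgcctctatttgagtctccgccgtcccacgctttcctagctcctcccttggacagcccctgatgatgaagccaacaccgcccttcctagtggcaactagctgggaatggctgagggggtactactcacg
Psme2, start 2, chr14:55591102-55591351, - strand: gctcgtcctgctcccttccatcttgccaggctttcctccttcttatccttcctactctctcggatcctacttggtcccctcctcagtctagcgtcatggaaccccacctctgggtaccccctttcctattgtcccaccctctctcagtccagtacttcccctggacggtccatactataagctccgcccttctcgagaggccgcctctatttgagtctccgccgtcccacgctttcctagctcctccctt
In these stretches only Psmb8 held a match, to TTCNNNGAA. The 40 member genes had 44 stretches, 1 per listed start. That motif was found in 2 of the 44, against 7.02% of 32851 stretches of the same length over all genes. The pair of GAAA copies was found in 3 of the 44, of Psmb3, Psmd4 and Psmd9, against 2.98%. A match is a description of letters and not a binding site.

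The direction of the deposited ratios is likely mouse over pool. It is not stated, and it rests on the order of names in the array titles and on Ppara, which under this direction was lower with PPARa-M siRNA than with SEAP-M control siRNA (log2 difference -0.89, SE 0.17, adjusted p = 0.0104). All values below are log2 ratios of a mouse over the vehicle pool, or differences between group means of such ratios. Group differences were tested with limma over all 15252 genes with Benjamini-Hochberg adjustment, and a gene was called at an adjusted p under 0.05. In whole liver, fewer cells of a type and less RNA per cell cannot be told apart. Over all genes, arrays of PPARa-M mice correlated at 0.647 for A with B and 0.62 for C with D. The other pairs of PPARa-M mice stood at 0.304 to 0.424. Mice A and B, and C and D, were thus closest, while the tests took all PPARa-M mice as independent. Arrays of different vehicle mice correlated at -0.21 to -0.01. PPARa-M siRNA mouse B stood furthest out, holding the highest value of the 20 mice in 15.4% and the lowest in 19.4% of all genes. Its array also had the widest spread of ratios, with an interquartile range of 0.1245 on the log10 scale. The other arrays ranged from 0.0442 to 0.089.

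Member values lay close to the pool. They ran from -0.58 to 0.73 over all 48 genes and 20 mice, and the mean over the 48 genes stayed between -0.07 and 0.09 in every mouse. The median within-group SD of a member was 0.13, against 0.15 over all genes. PPARa-M mouse B held the highest value in 11 and the lowest in 10 of the 48 members. Within this liver the ATPase gene Psmc5 stood at 0.64 and the ubiquitin receptor gene Psmd4 at 0.73, while the assembly factor genes Psmd5 and Psmd10 stood at -0.48 and -0.49. Its extremes therefore ran both ways.

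**Figure D1:**
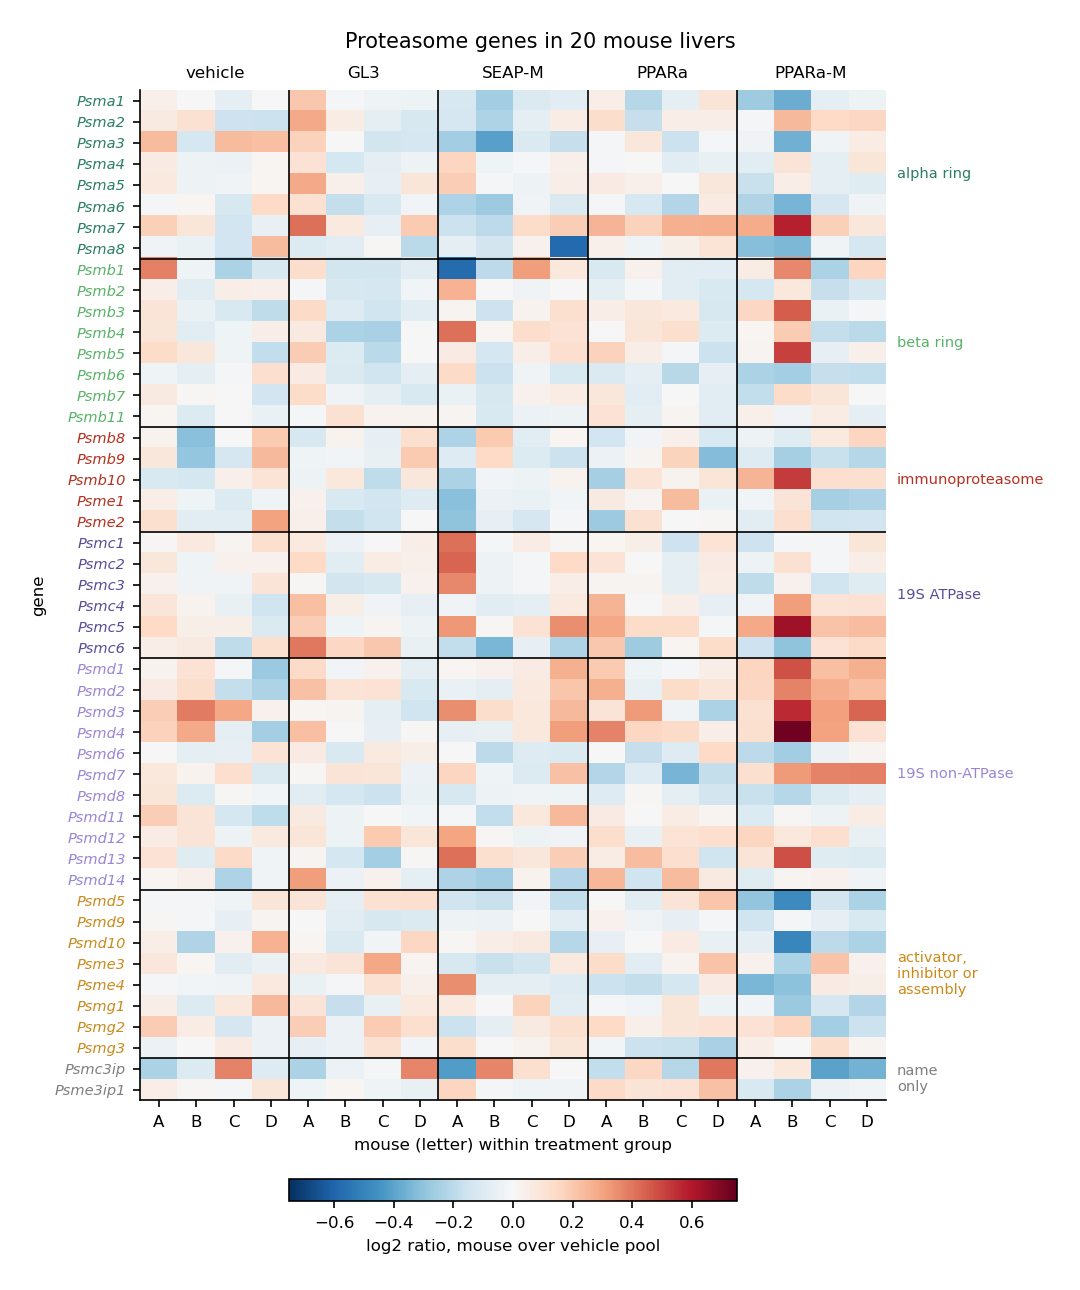
Heat map of the log2 ratio of mouse over vehicle pool for the 48 genes (rows, grouped and coloured by role) in the 20 mice (columns, letters A to D within each group). Most cells are pale, the deepest red is Psmd4 in PPARa-M mouse B at 0.73, and the deepest blues are Psma8 in SEAP-M mouse D and Psmb1 in SEAP-M mouse A, both at -0.58.

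No proteasome gene was called between the PPARa-M and SEAP-M control groups, where 2.54% of all genes were called. Of the 48 members, 23 had a positive and 25 a negative difference, with a median of -0.01, equal within rounding to the -0.01 over all genes. The median size of the difference, without its sign, was 0.13 for members and 0.11 for all genes. At an unadjusted p under 0.05, 6 members were higher and 5 lower, together 11 of 48, against 18.8% of all genes. The 95% confidence intervals of all 48 members lay within 1.5-fold either way, as did those of 83.4% of all genes. In data simulated on this comparison, 80 of 100 genes changed by 1.5-fold and 96 of 100 changed by 2-fold were called, with 6 false calls. The simulated noise was independent between genes and had the same SD in each group. Deviations that many genes of an array share were left out, so these rates need not hold for the real arrays.

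**Figure D2:**
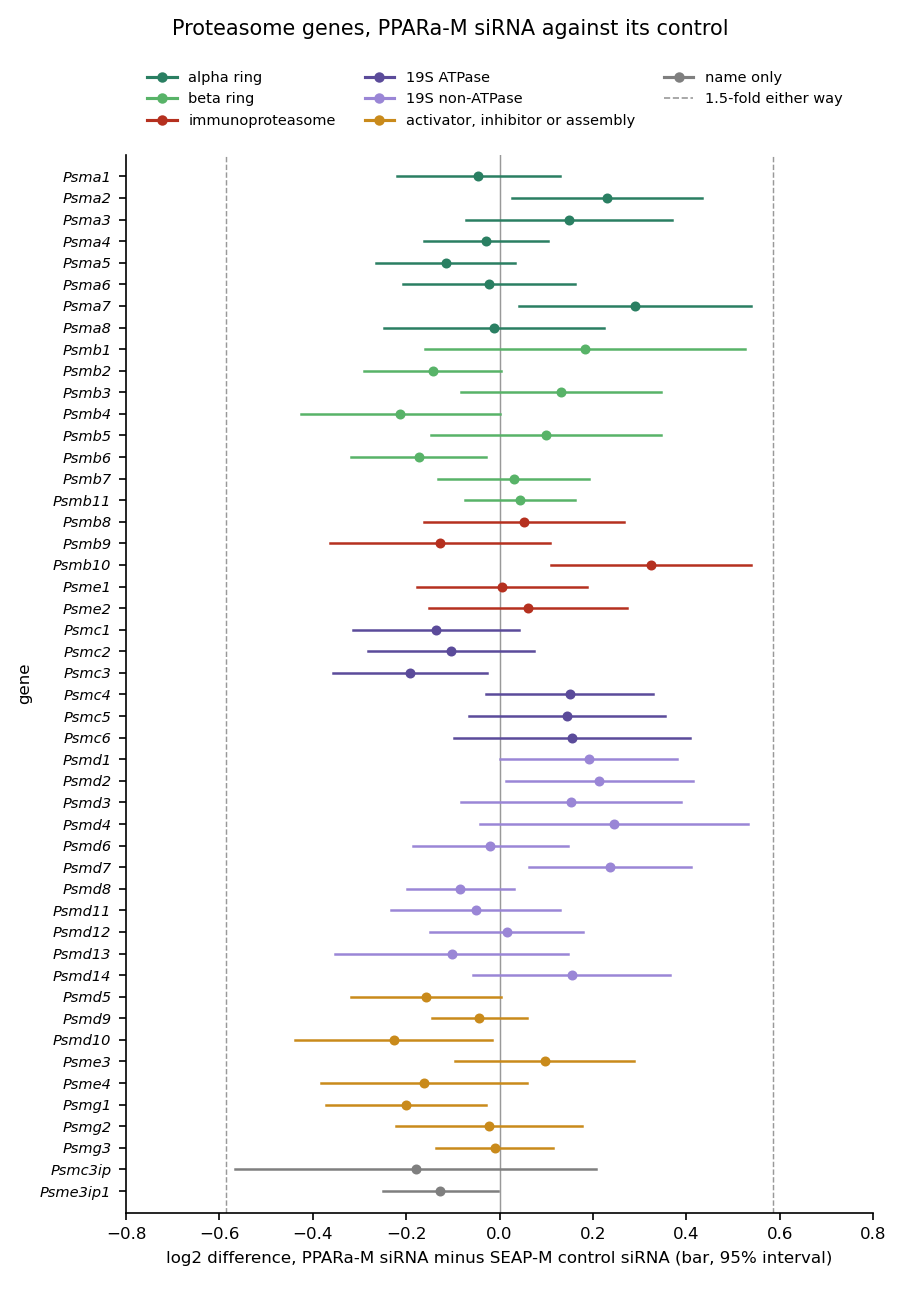
Log2 difference, PPARa-M minus SEAP-M control group, for each of the 48 genes (point) with its 95% confidence interval (bar), coloured by role, with dashed lines at 1.5-fold. Points run from -0.23 for Psmd10 to 0.32 for Psmb10, and no interval reaches a dashed line.

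The catalytic immunoproteasome gene Psmb10 had the largest difference of the members in this comparison. Its ratios were 0.26, 0.53, 0.12 and 0.12 in PPARa-M mice A to D, and -0.24, -0.02, -0.04 and 0.03 in SEAP-M mice A to D. All 4 PPARa-M livers were above all 4 SEAP-M livers. The difference was 0.32 (SE 0.10, 95% interval 0.11 to 0.54), or 1.25-fold, with an adjusted p of 0.0909. Groups without overlap occurred in 10.1% of all genes here and in 2 members. These were Psmb10, higher, and Psmb6, a constitutive catalytic beta gene, lower (-0.17, SE 0.07, adjusted p = 0.178). They are not counterparts, as Psmb9 takes the place of Psmb6 in the immunoproteasome and Psmb10 that of Psmb7. Psmb9 minus Psmb6 averaged 0.03 in PPARa-M mice and -0.01 in SEAP-M mice, and Psmb10 minus Psmb7 averaged 0.25 and -0.05. Both scores overlapped between these groups. Psmb10 and Psmb6 were singled out after their values were seen.

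Psmb8 and Psmb9, the other catalytic genes of the immunoproteasome, overlapped between these groups. Psmb8 ratios were -0.04, -0.09, 0.07 and 0.16 in PPARa-M mice and -0.23, 0.19, -0.09 and 0.02 in SEAP-M mice, and the difference was 0.05 (95% interval -0.16 to 0.27, adjusted p = 0.831). Psmb9 ratios were -0.10, -0.25, -0.17 and -0.21 in PPARa-M mice and -0.10, 0.15, -0.10 and -0.16 in SEAP-M mice. All 4 PPARa-M values were thus negative, but the difference of -0.13 was not called (95% interval -0.36 to 0.11, adjusted p = 0.578). The activator genes Psme1 and Psme2 differed by less than 0.01 (0.0047, 95% interval -0.18 to 0.19) and by 0.06 (95% interval -0.15 to 0.27).

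**Figure D3:**
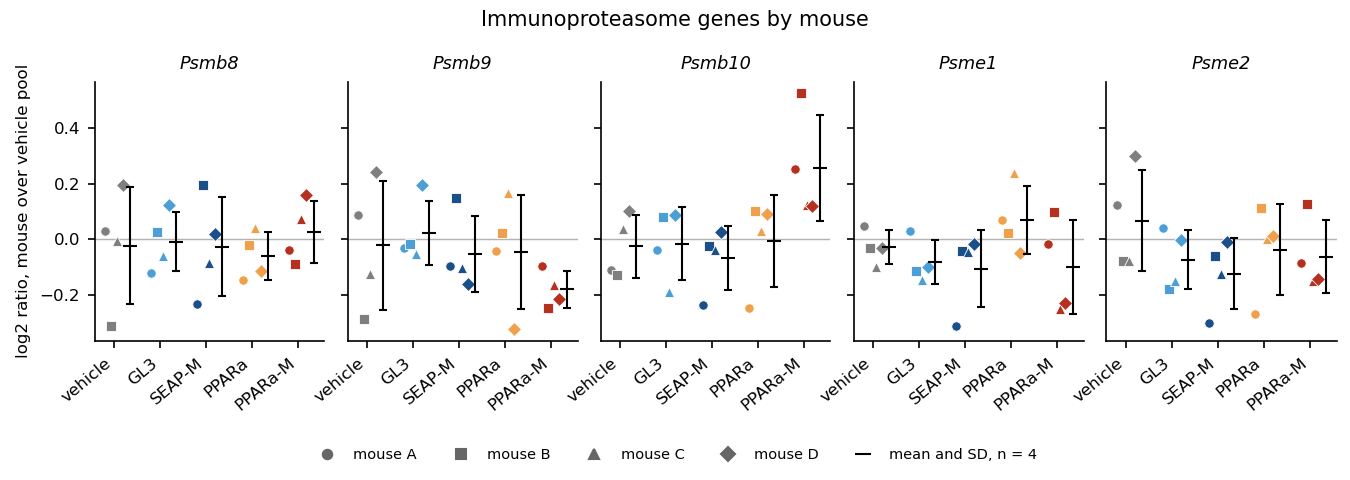
Log2 ratio of mouse over vehicle pool for the 5 immunoproteasome genes in the 20 mice, with the mean and SD of the 4 mice of each group in black. For Psmb10 the PPARa-M points, from 0.12 to 0.53, lie above every point of the other groups, which reach 0.10 at most. For Psmb9 the PPARa-M points, from -0.25 to -0.10, lie below every GL3 point, the lowest at -0.05. These groups were not tested against each other. The Psmb9 points of PPARa-M mice overlap those of the remaining groups. For Psmb8, Psme1 and Psme2 the groups overlap.

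The mean of the 5 immunoproteasome genes ran from -0.24 to 0.16 over the 20 mice, and that of the 43 other members, taken over more genes, from -0.08 to 0.10. The immunoproteasome mean was 0.003, 0.08, -0.07 and -0.06 in PPARa-M mice A to D and -0.24, 0.04, -0.08 and -0.03 in SEAP-M mice A to D. For the other members the means were -0.04, 0.06, 0.0 and 0.005 in PPARa-M mice and 0.04, -0.08, 0.02 and 0.02 in SEAP-M mice. The immunoproteasome mean minus that of the others therefore differed between these groups by 0.055, against a within-group SD between mice of 0.124, and by 0.008 between PPARa siRNA and GL3 control siRNA. Without 1 mouse the former ran from -0.011 (SEAP-M mouse A left out) to 0.122 (SEAP-M mouse B left out) and the latter from -0.037 (PPARa mouse C left out) to 0.06 (PPARa mouse A left out), so neither kept its sign. No test was run on this score.

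Interferon-stimulated genes did differ in the same livers. Of 31 such genes measured, none is a member. With PPARa-M siRNA against SEAP-M control siRNA 5 of them rose, beside 2.54% of all genes called in either direction. The 5 were Dhx58, Eif2ak2 (the RNA-sensing kinase PKR), Irf1, Rtp4 and Zbp1. All 31 differences were positive (median 0.69, against -0.01 over all genes). The list mean was 0.15, -0.04, 1.45 and 1.44 in PPARa-M mice A to D and lay between -0.38 and 0.22 in the other 16 mice, so mice C and D stood apart. In these livers the immunoproteasome mean was -0.07 and -0.06, and in the 18 others it ran from -0.24 to 0.16. Irf1, the factor known to act on the Psmb9 and Tap1 promoter, stood at 0.19, 0.53, 0.65 and 0.59 in PPARa-M mice A to D and at -0.21, 0.03, 0.13 and -0.44 in SEAP-M mice, with a difference of 0.61 (SE 0.13, adjusted p = 0.0194) that was not called without PPARa-M mouse C or D or SEAP-M mouse A (0.56, 0.58 and 0.58). In GL3 control siRNA and PPARa siRNA mice Irf1 lay between 0.23 and 0.55, while the list means of these mice were -0.25 to 0.19.

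**Figure D4:**
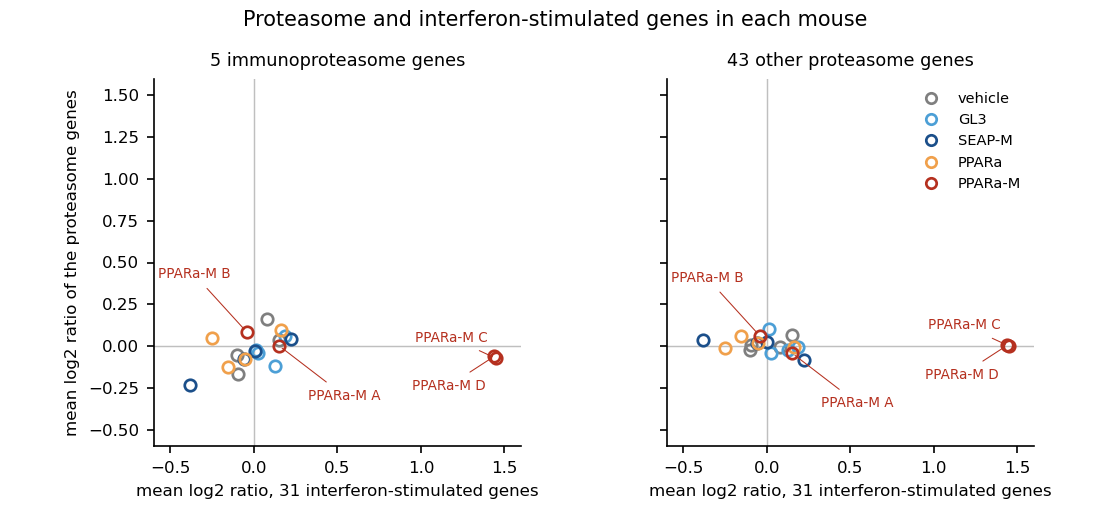
Mean log2 ratio of 31 interferon-stimulated genes (x axis) against the mean of the 5 immunoproteasome genes (left) and of the 43 other proteasome genes (right), 1 circle per mouse, coloured by group, on equal scales. PPARa-M mice C and D lie at 1.45 and 1.44 on the x axis while their proteasome means stay between -0.07 and 0.01.

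The genes that work downstream of the immunoproteasome followed neither pattern as a group. Of 13 antigen processing genes measured, 2 fell with PPARa-M siRNA against SEAP-M control siRNA and none rose. Over all genes 2.54% were called there, in either direction. The median difference of the 13 genes was -0.005. That median is the difference of H2-Q7, whose ratio nearly equalled that of some hepatocyte genes on some arrays, as given below. Both genes that fell encode class I heavy chains. H2-D1 was -0.48, -0.82, -0.56 and -0.42 in PPARa-M mice and 0.39, 0.03, -0.14 and -0.17 in SEAP-M mice (difference -0.60, SE 0.12, adjusted p = 0.0167). H2-K1 was -0.52, -0.90, -0.56 and -0.52 against 0.36, -0.04, -0.32 and -0.25 (difference -0.56, SE 0.14, adjusted p = 0.0425). Every PPARa-M liver was below every SEAP-M liver for both, and groups without overlap occurred in 10.1% of all genes. H2-D1 lost its call without SEAP-M mouse A (-0.48, adjusted p = 0.0547), and H2-K1 lost it in 11 of the 20 fits that left out 1 library, with -0.42 as its smallest size (SEAP-M mouse A left out). Erap1, which trims peptides, and Pdia3, of the peptide-loading complex, differed by -0.21 (adjusted p = 0.27) and 0.14 (adjusted p = 0.443).

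Tap1, singled out after its values were seen because it shares its upstream stretch with Psmb9, split the PPARa-M mice. It stood at -0.29 and -0.86 in mice A and B and at 0.65 and 0.67 in mice C and D, the livers in which the interferon-stimulated list was high. Psmb9 was between -0.25 and -0.10 in all 4. Psmb8, the neighbour on the other side of Tap1, was -0.04 and -0.09 in mice A and B and 0.07 and 0.16 in mice C and D. Over the 20 mice, with group means removed, Psmb9 correlated with Tap1 at 0.344 and with Psmb8 at 0.72. Psmb8 correlated with Tap1 at 0.572 and with Tap2 at 0.711. These are correlations over mice that share 1 pool as reference, given as a description.

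Within groups the immunoproteasome genes varied together more than the other members did. With group means removed, the mean correlation over 20 mice was 0.405 over their 10 pairs, 0.133 over the 903 pairs of other members, -0.074 between the sets and 0.003 over all pairs of genes. Psme1 and Psme2, neighbours on chromosome 14, correlated at 0.53. Among single pairs of members the highest values were 0.92 for the beta ring genes Psmb3 and Psmb5 and 0.912 for Psma2 and Psmd2, and the lowest was -0.838 for Psmd1 and Psmd10. By role the means were 0.265 for alpha ring, 0.293 for beta ring, 0.37 for ATPase, 0.152 for non-ATPase and 0.074 for activator, inhibitor or assembly genes.

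The alpha and beta ring genes showed no called difference between PPARa-M and SEAP-M mice. Among alpha ring genes the differences ran from -0.12 for Psma5 to 0.29 for Psma7, and 2 of 8, Psma2 and Psma7, were higher at an unadjusted p under 0.05. Psma7 was positive in all 4 PPARa-M mice (0.09 to 0.59) and also in all 4 PPARa siRNA mice (0.17 to 0.27). SEAP-M mice ran from -0.20 to 0.18, GL3 mice from -0.06 to 0.42 and vehicle mice from -0.14 to 0.18. The Psma7 difference in the average of both Ppara siRNAs against both control siRNAs was 0.19 (adjusted p = 0.405). No member was called there, against 0.216% of all genes, and 3 of 48 had an unadjusted p under 0.05 in limma, against 11.3%. Among beta ring genes the differences ran from -0.21 for Psmb4 to 0.18 for Psmb1, both with intervals that include 0. Without SEAP-M mouse A the Psmb1 difference was 0.02.

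No 19S cap gene was called in that comparison. Non-ATPase genes were higher in 7 of 11 cases with a median of 0.15, from -0.10 for the lid gene Psmd13 to 0.25 for Psmd4, and their mean was 0.04, 0.23, 0.12 and 0.11 in PPARa-M mice A to D against 0.07, -0.05, 0.02 and 0.12 in SEAP-M mice. ATPase genes were higher in 3 of 6, from -0.19 for Psmc3 to 0.16 for Psmc6. The genes of activators, inhibitors and assembly factors were lower in 7 of 8, with a median of -0.10, from -0.23 for Psmd10, whose product gankyrin is an assembly chaperone, to 0.10 for the nuclear activator gene Psme3. Their mean was -0.09, -0.21, -0.05 and -0.11 in PPARa-M mice and 0.01, -0.06, 0.01 and -0.05 in SEAP-M mice. Mouse B was the extreme liver of the non-ATPase and of the activator, inhibitor and assembly means. Without it the Psmd4 difference was 0.11 and that of Psmd13 -0.23, and without SEAP-M mouse A Psmd13 stood at -0.03. Psme3 stood at 0.03 without PPARa-M mouse C. Psmc3ip and Psme3ip1, the genes that share only the name pattern, had differences of -0.18 and -0.13.

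Against vehicle, PPARa-M siRNA mice showed 2 called members, Psmd1 higher and Psmd5 lower, beside 7.28% of all genes. Psmd1, which encodes the largest scaffold subunit of the cap base, was 0.16, 0.48, 0.23 and 0.27 in PPARa-M mice and 0.03, 0.11, -0.01 and -0.28 in vehicle mice. The groups did not overlap, and the difference was 0.32 (SE 0.09, 1.25-fold, adjusted p = 0.0384). Psmd5, a chaperone that assembles the ATPase ring and leaves the finished particle, was -0.30, -0.48, -0.14 and -0.24 in PPARa-M mice and -0.01, -0.02, -0.03 and 0.09 in vehicle mice. Every PPARa-M liver was below every vehicle liver, with a difference of -0.30 (SE 0.08, 0.815-fold, adjusted p = 0.0277). Against SEAP-M control siRNA the same genes differed by 0.19 (adjusted p = 0.261) and -0.16 (adjusted p = 0.275). Psmd1 lost its call against vehicle without any of 6 libraries (PPARa-M mice B, C and D and vehicle mice A, C and D) and Psmd5 without any of 4 (PPARa-M mice A and B and vehicle mice A and D). Neither was called after quantile normalization or after scaling the arrays to 1 interquartile range.

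At an unadjusted p under 0.05, 15 of 48 members differed between PPARa-M siRNA and vehicle, 6 higher and 9 lower, against 23.3% of all genes. Groups did not overlap in 7 members, against 13.2% of all genes. Those higher were Psmb10, Psmc5, Psmd1 and Psmd2, and those lower were Psmb6, Psmd5 and Psme3ip1. For Psmb10 the vehicle mice were at -0.11, -0.13, 0.04 and 0.10, all below the 4 PPARa-M mice, with a difference of 0.28 (SE 0.10, adjusted p = 0.101).

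No member was called with PPARa siRNA. Ppara itself stood at 0.09, -0.42, -0.29 and -0.35 in PPARa siRNA mice A to D and at 0.04, 0.20, 0.005 and 0.15 in GL3 mice. Its mean was -0.24 with PPARa siRNA and -0.71 with PPARa-M siRNA. Against GL3 control siRNA no gene was called lower, Ppara included. Against GL3 control siRNA 0 of 48 were called, against 0.0525% of all genes, and against vehicle 0 of 48, against 0.0787%, with 2 members lower at an unadjusted p under 0.05 in limma, against 5.55%. At an unadjusted p under 0.05, limma gave 3 members in the former comparison, Psmd7 and Psmg3 lower and Psme3ip1 higher, against 4.95% of all genes. The median size of a member difference from GL3 control siRNA was 0.04. The immunoproteasome genes differed by -0.05 (Psmb8), -0.07 (Psmb9), 0.01 (Psmb10), 0.15 (Psme1) and 0.04 (Psme2), each with an interval that includes 0. The control siRNAs called no member against vehicle either, beside 0.00656% of all genes for SEAP-M and 0.0131% for GL3, and limma gave an unadjusted p under 0.05 for 1 member in each, against 5.85% and 2.77% of all genes.

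The Ppara siRNAs differed from each other at 4 members. This comparison was added after the data were seen, and 9.02% of all genes were called in it. Psmd7, a non-ATPase subunit that pairs with the deubiquitinase Psmd14, was -0.22, -0.10, -0.35 and -0.18 in PPARa siRNA mice and 0.12, 0.32, 0.37 and 0.38 in PPARa-M mice. Every PPARa siRNA value was negative and every PPARa-M value positive, with a difference of 0.51 (SE 0.08, 1.42-fold, adjusted p = 0.000983). Groups without overlap occurred in 6 members and in 14.4% of all genes. It was the member with the smallest adjusted p over all 5 groups (F = 9.56, adjusted p = 0.0139), followed by Psmd5 (F = 7.85, adjusted p = 0.0248), and those were the 2 members called there, against 5.76% of all genes. PPARa-M siRNA was also set against SEAP-M control siRNA and PPARa siRNA against GL3 control siRNA. This pairing was taken from the suffix M and is not stated in the sources. The siRNA effects on Psmd7 so taken differed by 0.49 (SE 0.12, adjusted p = 0.058). No member was called in that test, against 0.879% of all genes, with 5 members at an unadjusted p under 0.05 in limma, against 12.6%.

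The Psmd7 result came from 1 of its 2 probes. The probe taken from the RefSeq transcript read 0.21, 0.02, -0.07 and 0.26 in PPARa siRNA mice and 0.16, 0.13, 0.16 and 0.18 in PPARa-M mice, and its difference was 0.05 (SE 0.09, adjusted p over all probes = 0.755). The probe taken from a cDNA clone read -0.65, -0.21, -0.63 and -0.62 against 0.09, 0.51, 0.58 and 0.57, with a difference of 0.97 (SE 0.15, adjusted p = 0.000432). Over the 20 mice these probes correlated at -0.042. Psmg3, an assembly chaperone gene, showed the same division. Its mean over probes was higher with PPARa-M siRNA by 0.20 (SE 0.06, adjusted p = 0.0464), its probes gave -0.08 (adjusted p = 0.428) and 0.47 (adjusted p = 0.00217), and the probes correlated at -0.137. The call at the level of the gene was kept in 3 of 20 fits that left out 1 library each.

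**Figure D5:**
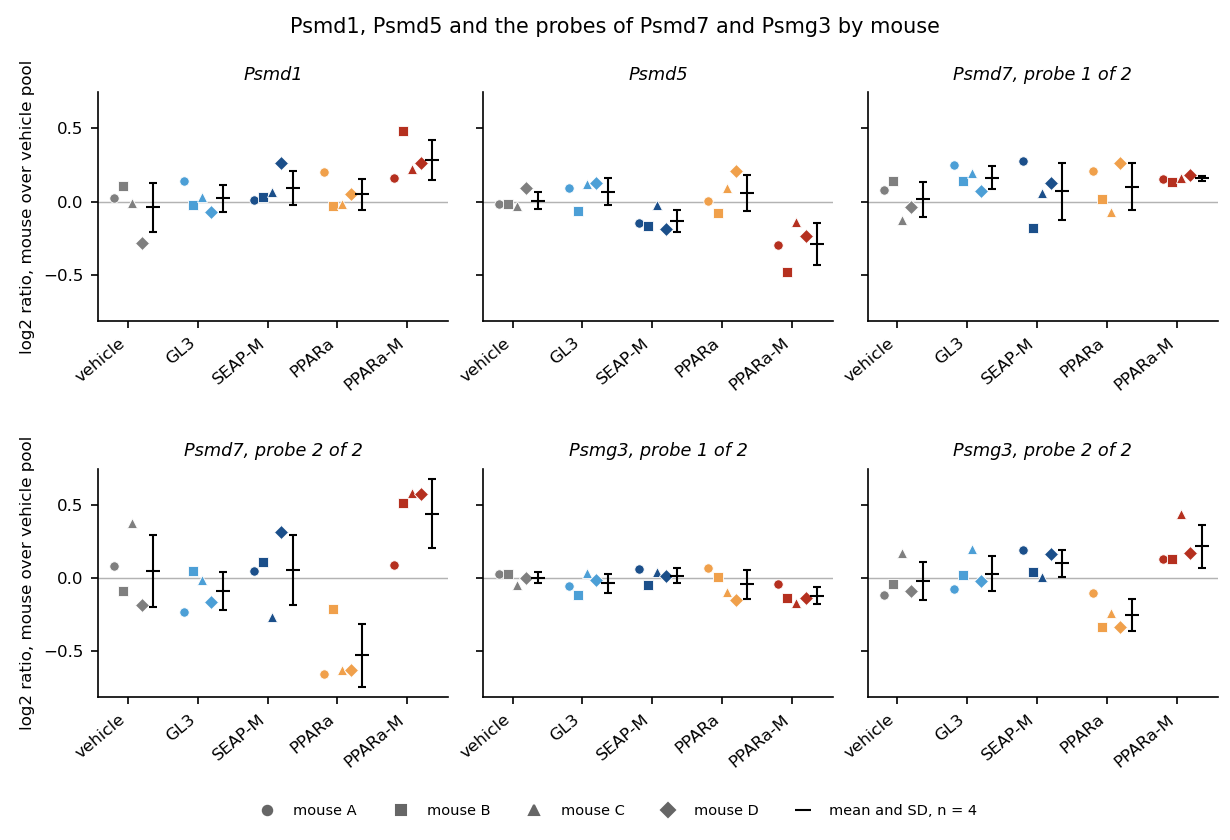
Log2 ratio of mouse over vehicle pool in the 20 mice for Psmd1 and Psmd5 (1 probe each) and for each of the 2 probes of Psmd7 and Psmg3, with the mean and SD of the 4 mice of each group in black. The second probe of Psmd7 parts PPARa siRNA mice, from -0.65 to -0.21, from PPARa-M mice, from 0.09 to 0.58, while the first probe does not.

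Of the 7 members with several probes, the 4 probes of Psma1 agreed best, at correlations of 0.754 to 0.991 over the 20 mice. The pair for Psme3 correlated at 0.552 and that for Psme3ip1 at 0.27. The pairs for Psmd7, Psmd9, Psmd11 and Psmg3 lay between -0.486 and -0.027. Psme3ip1 was lower with PPARa-M siRNA than with PPARa siRNA by 0.25 (difference -0.25, SE 0.06, adjusted p = 0.0134), with both probes lower. Psmd5, with a single probe, was lower by 0.35 (difference -0.35, SE 0.08, adjusted p = 0.00863), at 0.004, -0.08, 0.10 and 0.21 in PPARa siRNA mice, all above the PPARa-M mice. Both calls were kept in all 20 fits that left out 1 library. After quantile normalization Psmd7 was the 1 member called between the Ppara siRNAs, and no member was called over the 5 groups.

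Genes that serve the proteasome from outside the particle gave 1 call between PPARa-M and SEAP-M mice. Of 19 measured, Nfe2l1 fell and none rose (median -0.003), where 2.54% of all genes were called. Nfe2l1 was -0.34, -0.56, -0.22 and -0.24 in PPARa-M mice and 0.52, 0.14, 0.11 and -0.10 in SEAP-M mice. The groups did not overlap, as was so for 2 of the 19 genes and 10.1% of all genes. The Nfe2l1 difference was -0.51 (SE 0.11, 0.704-fold, adjusted p = 0.0199), or -0.39 and not called without SEAP-M mouse A (adjusted p = 0.0565). Nsfl1c, a cofactor of the segregase Vcp, differed by -0.38 (adjusted p = 0.132), Ufd1, another such cofactor, by 0.31 (adjusted p = 0.141), and the shuttle factor gene Ubqln4 by 0.21 (adjusted p = 0.23). Against vehicle Ubqln4 rose by 0.38 (SE 0.09, adjusted p = 0.0225), the only call among these 19 genes there, beside 7.28% of all genes. The Ubqln4 call was lost without PPARa-M mouse B or vehicle mouse C or D. The Nfe2l1 difference from vehicle was -0.35 (adjusted p = 0.0581).

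In all, 5 member genes carried TGACNNNGC, a core of the antioxidant response element to which Nfe2l1 binds, in the 250 bases before their starts. These stretches are shown because Nfe2l1 was called, with the match in capitals, on either strand, and up to 16 bases on each side. The start used for Psmb6 lies inside its gene span, which begins at chr11:70525324, so its stretch falls within that span.
Psmb5, chr14:54618018-54618058, - strand: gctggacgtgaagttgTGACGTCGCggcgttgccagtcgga
Psmb6, chr11:70525332-70525356, + strand: ggcggactaaagagagTGACGGAGC
Psmc6, chr14:45329581-45329621, + strand: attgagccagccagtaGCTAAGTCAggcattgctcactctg
Psmd9, chr5:123228143-123228183, + strand: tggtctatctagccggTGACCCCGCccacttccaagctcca
Psmd12, chr11:107479278-107479305, + strand: tctGCTGTGTCAcatttgcccccctcag
That was 5 of the 44 member stretches, against 10.2% of all stretches, and 12.5% of the 40 genes with a stretch. With PPARa-M siRNA against SEAP-M control siRNA these genes differed by 0.10 (Psmb5), -0.17 (Psmb6), 0.16 (Psmc6), -0.04 (Psmd9) and 0.02 (Psmd12), 3 up and 2 down, none called.

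Marker lists of liver cell types together gave 1 call between PPARa-M and SEAP-M mice, where 2.54% of all genes were called. None of 28 leukocyte genes was called (median 0.02, list mean -0.20 to -0.004 in PPARa-M mice and -0.49 to 0.01 in SEAP-M mice), and the smallest p-values belonged to the T cell gene Cd3e (-0.19, adjusted p = 0.221) and the B cell gene Ms4a1 (-0.20, adjusted p = 0.272). Of 15 endothelial and stellate genes, the receptor gene Flt1 rose (0.46, adjusted p = 0.037, not called without any of PPARa-M mice B, C and D and SEAP-M mice A and C, at 0.41 to 0.49), and Cldn5 differed by 0.26 (adjusted p = 0.0698). None of 13 hepatocyte genes was called (list mean -0.07 to 0.17 in PPARa-M mice and -0.18 to -0.06 in SEAP-M mice). G6pc stood at 1.16 (adjusted p = 0.0672) and Cyp2e1 at -0.42 (adjusted p = 0.127). Before adjustment, limma gave p under 0.05 for 5 hepatocyte genes with a rise and 1 with a fall, against 18.8% of all genes. Ahsg, F2 and Fgb of this list shared 1 ratio on some arrays, -0.241 in PPARa mouse B and -0.362 in PPARa-M mouse A. H2-Q7 of the antigen processing list stood at -0.241 and -0.36 there. Whether these ratios, and the list means that hold them, follow RNA amounts was not tested. The part of the liver cell types in the member values was not tested.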

How the data were processed

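Liver RNA of 20 mice was amplified, labelled with Cy3 or Cy5 and hybridised on custom 2-colour arrays against the pooled RNA of 4 vehicle mice, as the labels describe. The authors deposited 1 log10 ratio per probe and array. Their normalization and the direction of the ratio are not given in the sources used here, the values end at 2 on either side (40 values, none of a member), and array medians lay between -0.0093 and 0.006 on that log10 scale. The deposited log10 ratios carry no signal or background, so depth and detection are unknown and precision is limited by the number of arrays.

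Ratios were converted to log2, and probes with a single gene symbol (18790 of 23493; 65 had several and 4638 none) were averaged to 15252 genes. All 48 member symbols matched RefSeq GRCm38.p6. A linear model with 1 mean per group over all 20 arrays was fitted with limma 3.58.1 in R 4.3.3 (lmFit and eBayes), with Benjamini-Hochberg adjustment over all genes and a threshold of 0.05. It was tested on simulated data. Alternatives were array centring, quantile normalization, scaling to 1 interquartile range, array weights, robust moderation, the median of probes, single probes, the compared groups alone, a replicate block, and leaving out each mouse.

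The members and lists were chosen with earlier results of these data known. Named genes were the immunoproteasome genes, members called in any comparison but the added one between the Ppara siRNAs, and the highest and lowest member of each role in PPARa-M against SEAP-M. Psmg3, called in the added comparison alone, was therefore not among them. Ppara was also named, and from each list the 4 (antigen processing, proteasome partners) or 2 genes with the smallest p. The labels name 4 separate mice per group, which were taken as replicates. Of the vehicle profiles, 4 are analysed here.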

Additional observations from a re-analysis of the deposited data

Results flagged for a closer look

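The values of 20 named members and 3 set means (the immunoproteasome genes, the other members and the difference of these means) were examined in each of the 5 groups. In 5 of these 115 groups of 4 mice, 1 mouse lay apart from the other three by more than Dixon's critical value, and chance gives such a gap in about 1 of 20 groups. Psmb9 had a gap of 0.857 of the range in GL3 control siRNA mice (0.20 in mouse D), and Psme1 of 0.904 in SEAP-M control siRNA mice (-0.31 in mouse A). Psmd5 had gaps of 0.865 in vehicle mice (0.09 in mouse D) and 0.852 in GL3 control siRNA mice (-0.07 in mouse B). Psme3ip1 had a gap of 0.89 in SEAP-M control siRNA mice (0.16 in mouse A).

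The effects of PPARa-M siRNA and PPARa siRNA against the shared vehicle group differed at 4 of 48 members, where 9.02% of all genes were called and groups did not overlap in 14.4% of all genes. In limma over all genes the adjusted p of the difference was 0.0009827 for Psmd7 (0.51 on the log2 scale, all 4 PPARa-M mice above all 4 PPARa mice), 0.008629 for Psmd5 (-0.35, all 4 below), 0.01343 for Psme3ip1 (-0.25, all 4 below) and 0.04638 for Psmg3 (0.20, all 4 above). The Psmg3 call was kept in 3 of 20 fits that left out 1 library each. For Psmd7 and Psmg3 the difference was carried by 1 of 2 probes, and the probes of each gene correlated at -0.042 and -0.137. The mean log2 ratios of the interferon-stimulated list in PPARa-M mice C and D were 1.45 and 1.44, beside immunoproteasome means of -0.07 and -0.06.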

How the results depend on the processing

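Over the tried settings, 315 values of the counts of called members and of the immunoproteasome score moved by less than 1.5 times or 1 SD, and 24 moved further. Between PPARa-M and SEAP-M mice the count was 0 in each setting but array weights, which gave 1 (Psmd7). For the difference between the Ppara siRNAs, each against the control paired with it by the suffix M, it was 0, but 1 with each array centred on its median and 1 with array weights. For PPARa-M siRNA against PPARa siRNA (4) it was 1 after quantile normalization, 2 after scaling to 1 interquartile range and 1 in the compared groups alone. For PPARa-M siRNA against vehicle (2) it was 4 with median centring and 0 after quantile normalization, after scaling and in the compared groups alone. Over the 5 groups (2) it was 0 after quantile normalization and after scaling. Leaving out 1 mouse at a time, these counts ran from 0 to 0, 0 to 1, 3 to 4, 0 to 4 and 1 to 2 in the same order. For PPARa-M siRNA against vehicle the count fell to 0 without PPARa-M mouse B, vehicle mouse A or vehicle mouse D and rose to 4 without vehicle mouse B. Over the 5 groups, Psmd5 was lost without PPARa-M mouse A or B. Between PPARa-M and SEAP-M mice, Psme1 reversed to -0.11 and Psme2 to -0.021 with array weights. Without 1 mouse Psme1 ran from -0.0647 to 0.0549, Psme2 from -0.0023 to 0.0995 and Psmb8 from -0.0158 to 0.1261. The deviations of mice with the same replicate letter correlated at -0.205 to 0.302 (median -0.017, above 0.1 in 13 of 40 pairs). Those with different letters correlated at -0.373 to 0.368 (above 0.1 in 23 of 120). The A mice of the vehicle, GL3, SEAP-M and PPARa groups correlated with each other at 0.166 to 0.301. PPARa-M mouse A correlated with these at -0.115 to -0.006. The letters thus did not pair the mice throughout, and whether letter A marks a shared factor was not tested. With a replicate block the count against vehicle was 1. The cause of these moves was not tested. Among values of named genes, 74 lost and 8 gained a call, 7 turned sign and 1125 did neither. The calls of Ppara, Irf1, Eif2ak2, H2-D1, H2-K1, Nfe2l1 and Flt1 between PPARa-M and SEAP-M mice, and of Ubqln4 against vehicle, were lost after quantile normalization, after scaling and in the compared groups alone, with unchanged direction. The called differences of members at the level of the gene are under 1.5-fold, and without signals over background the detection of single probes is unknown.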
